A study of Mus musculus with 13 samples.

Results

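The genes described here hold back the cell division cycle. The list of 10 held Wee1, the inhibitors of cyclin-dependent kinases Cdkn1a, Cdkn1b, Cdkn1c, Cdkn2c and Cdkn2d, the antiproliferative genes Btg1 and Btg2, the stress gene Gadd45a and the retinoblastoma gene Rb1. A member was taken from the array where a probe carried its symbol alone, and the probe with the highest mean stood for the gene. This gave 9 of the 10, out of 19938 genes with such a probe. Cdkn1a, which encodes p21, shares its probe with another symbol and is not reported. All 9 passed the filter on low values, which left 16322 genes for testing.

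Whole back skin came from male C57Bl6 mice at postnatal day 30, untreated and on standard chow, whose hair follicles were growing (anagen). The lights were on for 12 h and off for 12 h, and ZT is the number of hours since they first came on. Samples were taken at 4 h steps, the first at ZT2 and the last at ZT50. RNA of 3 mice was pooled in equal parts for each time, so 39 mice gave 13 pools, with 1 array for each. There are 3 pools at 2 h after lights on and 2 at each of the other 5 times of day, which makes 7 pools in the light and 6 in the dark. Pools hide the spread between single mice, and in whole skin fewer cells of a type cannot be told apart from less RNA per cell.

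A dividing cell passes its checkpoints when cyclin-dependent kinases are active, and brakes act on those kinases at different points. Wee1 phosphorylates Cdk1 and so delays entry into mitosis. The Cip/Kip proteins (Cdkn1 genes) bind many cyclin and kinase pairs, the Ink4 proteins (Cdkn2 genes) bind Cdk4 and Cdk6, and the retinoblastoma protein holds E2F transcription factors until those kinases release it. In mouse liver, Wee1 is known as a direct target of the clock proteins CLOCK and BMAL1, which bind E-box sequences. The series title links Bmal1 to daily proliferation in epidermis, and the question here was whether the transcripts of the brakes followed the time of day.

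No brake passed the test for a 24 h wave over all genes. Of the 9 members 0 were called at an adjusted p under 0.05 (limma, Benjamini-Hochberg), beside 0.141% of the 16322 genes. At an unadjusted p under 0.05 there were 3 members, Wee1, Cdkn1c and Cdkn2d, beside 9.54% of all genes. The median amplitude, the height of the fitted wave, was 0.05 log2 over the members and 0.06 log2 over all genes tested. The fitted peaks of Wee1, Cdkn1c and Cdkn2d lay at 14.1, 15.0 and 20.1 h, in the dark. The share of all genes with a fitted peak in the dark was not counted. The highest Wee1 pool of each full day was at 10 h, in the light.

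**Figure D1:**
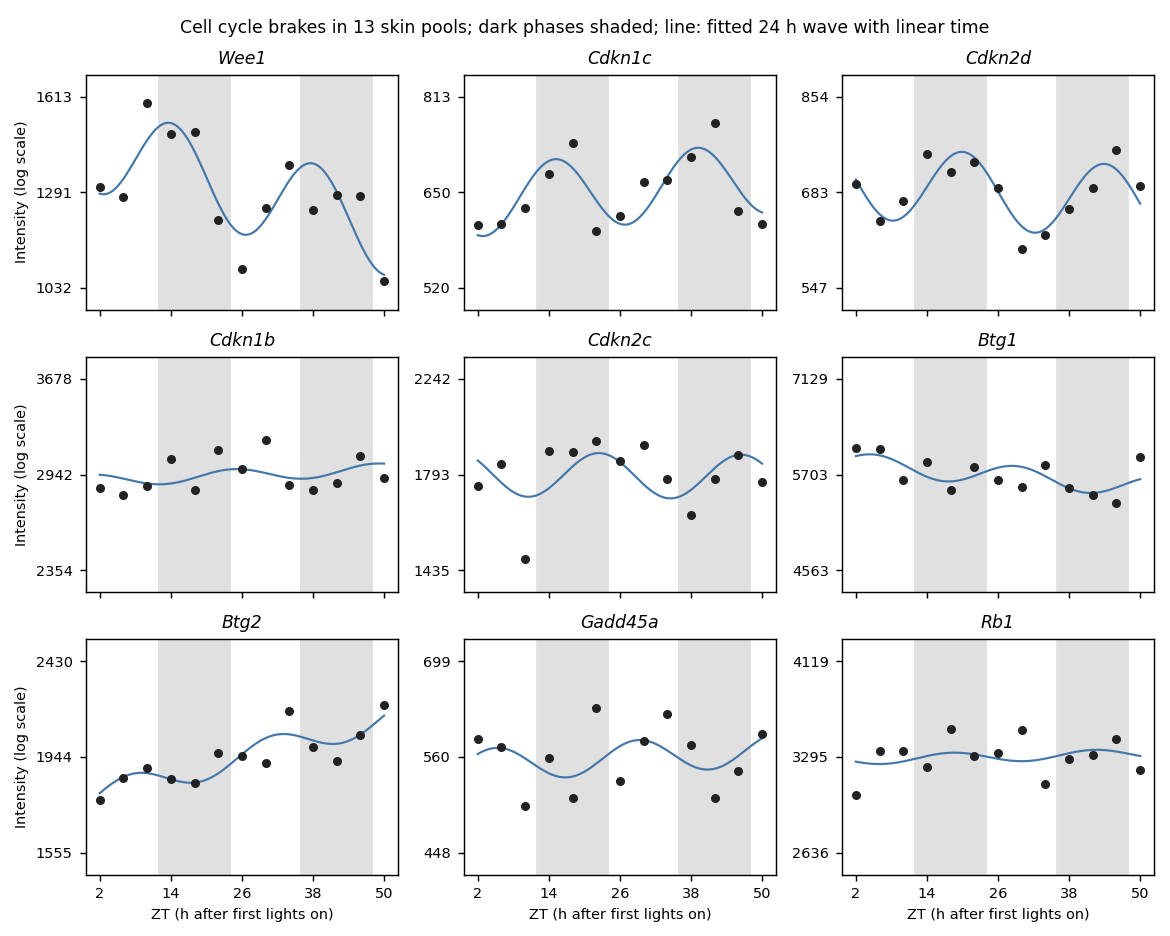
Array intensity (log scale, own range per gene) against ZT in hours for 9 cell cycle brakes; each point is 1 pool of 3 mice, grey bands are dark phases and the line is the fitted 24 h wave with linear time. Wee1, Cdkn1c and Cdkn2d have the largest fitted folds (1.23, 1.18 and 1.19), while Cdkn1b, on its brighter probe, and Rb1 are nearly flat (1.03 and 1.02).

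Wee1, the kinase that restrains Cdk1, had the largest fitted wave of the members. On the first day its intensity was 1307 at ZT2, 1276 at ZT6, 1591 at ZT10, 1478 at ZT14, 1484 at ZT18 and 1209 at ZT22. On the second day it was 1078 at ZT26, 1243 at ZT30, 1374 at ZT34, 1239 at ZT38, 1281 at ZT42 and 1278 at ZT46, and the last pool, ZT50, was the lowest at 1049. The 10 h pool was the highest of its day on both days, and the later 2 h pools, ZT26 and ZT50, were the lowest of all. By time of day the mean ran from 1145 ± 141.1 (SD, n = 3) at 2 h to 1483 ± 153.1 (SD, n = 2) at 10 h. The fitted wave had an amplitude of 0.15 ± 0.04 log2 (SE, 13 pools), a peak-to-trough fold of 1.23 (95% interval 1.1 to 1.38) and a peak at 14.1 ± 1.1 h. The unadjusted p was 0.0062 and the adjusted p 0.404 (limma), which placed Wee1 at rank 247 of 16322. The unadjusted p stayed under 0.05 in 24 of 24 alternative fits, and the adjusted p ran from 0.25 to 0.998 over them.

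Wee1 also had a sloping baseline. At 5 of 6 times of day the second-day pool lay below the first-day pool, by 17.5% at 2 h, 2.56% at 6 h, 13.6% at 10 h, 16.2% at 14 h and 13.7% at 18 h, and at 22 h it lay 5.73% above. A second day lower at 5 or more of the 6 times was found for 2116 of the 16322 genes. The fitted slope was -0.13 ± 0.05 log2 per 24 h (SE), with an adjusted p of 0.452. The unadjusted p of the slope was 0.0142 and was under 0.05 in 19 of 22 alternative fits. It was 0.0511 without the ZT2 pool, 0.0505 without ZT50, the lowest pool, and 0.125 with the levels of muscle and adipocyte markers as covariates.

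The clock genes of the same pools give the scale of these values. Nr1d1, a repressor of Bmal1, had a fold of 5.66 and a peak at 7.2 h, Dbp 5.85 at 9.7 h, Per2 2.38 at 13.3 h and Arntl, which encodes BMAL1, 1.54 at 22.5 h. The fitted peak of Wee1 lay within 1 SE of that of Per2, with a smaller fold. Of 15 clock genes tested 7 passed.

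Among the genes ranked, those most like Wee1 over the 13 pools were Lrrc61 (Pearson r = 0.91, Spearman rho = 0.96), Dnmt3b (0.88 and 0.86) and Fkbp5 (0.88 and 0.76). They were picked for their likeness, so no test applies. The profiles of 16321 genes were correlated with that of Wee1, and some were left out before ranking. Left out were predicted genes, clone names, microRNAs, small nucleolar RNAs, olfactory and vomeronasal receptors, and symbols starting with a letter and a digit. Dnmt3b encodes a DNA methyltransferase. Fkbp5 encodes a co-chaperone of the glucocorticoid receptor and ran from 422.0 in ZT50 to 813.3 in ZT14, with a fitted fold of 1.49 and a peak at 14.3 h (adjusted p = 0.0566). Lrrc61, from 700.9 in ZT22 to 855.9 in ZT10, had a fitted fold of 1.1.

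Among the Cip/Kip inhibitors, Cdkn1c had the same hours high on both days. Cdkn1c encodes p57, an inhibitor whose gene is imprinted and expressed mainly from the maternal copy. Its intensity on the first day was 602.7, 602.9, 625.9, 677.8, 728.3 and 594.2 from ZT2 to ZT22, and on the second 614.8, 666.4, 668.1, 705.5, 764.4 and 622.8 from ZT26 to ZT46, with 603.5 at ZT50. The 18 h pools were the highest 2 of the 13, and ZT22, 4 h after the first of them, was the lowest. Both 18 h pools above the other 11 was a pattern of 0.325% of all genes, and it was looked for after the values of Cdkn1c were seen. The fitted wave had an amplitude of 0.12 ± 0.03 log2 (SE), a fold of 1.18 (95% interval 1.07 to 1.30) and a peak at 15.0 ± 1.2 h, with an unadjusted p of 0.0122 and an adjusted p of 0.451. Under median centring of the arrays the unadjusted p was 0.0960. At all 6 times of day the second-day pool was above the first-day one, by 2.01% to 10.5%, as in 1.30% of all genes. The slope over all 13 pools was 0.04 ± 0.04 log2 per 24 h (adjusted p = 0.817), and without ZT50 it was 0.05.

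Cdkn1b, which encodes p27, the inhibitor that accumulates in resting cells, varied little. It ran from 2807 in ZT6 to 3189 in ZT30, with a median of 2885, and its SD of 0.06 log2 was at percentile 5.08 of all genes tested. The highest pool was in the light and the next, ZT22 at 3114, in the dark, so the phases overlapped. The fitted fold was 1.03 with an upper 95% bound of 1.13 (adjusted p = 0.939). A second, dimmer probe of Cdkn1b ran from 351.3 in ZT10 to 559.3 in ZT50. Its fitted fold was 1.17 (adjusted p = 0.594) with a slope of 0.14 ± 0.05 log2 per 24 h (SE, unadjusted p = 0.0192), beside 0.02 ± 0.04 for the first probe. The difference between the probes was not tested.

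Of the Ink4 genes, Cdkn2d, which encodes p19, had its highest value late in the night. Its intensity was 732.8 at ZT22 and 754.2 at ZT46, against 638.7 at ZT6 and 598.2 at ZT30, and the 2 h pools lay close together at 696.9, 689.7 and 693.6. At 14 h the days differed, with 746.3 at ZT14 and 657.4 at ZT38. At the remaining times it was 668.7 at ZT10, 716.3 at ZT18, 618.4 at ZT34 and 690.2 at ZT42. The lowest 3 pools were all at 6 or 10 h. The fitted wave had an amplitude of 0.12 ± 0.03 log2 (SE), a fold of 1.19 (95% interval 1.07 to 1.31) and a peak at 20.1 ± 0.9 h, with an unadjusted p of 0.00977 and an adjusted p of 0.442. ZT46, its highest pool, was also the pool with high hepatocyte transcripts, and without it the amplitude was 0.11 log2. With muscle and adipocyte levels as covariates the amplitude was 0.13 log2 and the unadjusted p 0.108. The part of these other cells in the profile was not tested further.

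Cdkn2c, which encodes p18, had 1 low pool. It lay at 1472 in ZT10 and between 1633 and 1941 in the other 12, with the highest value in ZT22. The fitted fold was 1.11 with an upper 95% bound of 1.26, a fitted peak at 22.5 ± 2.2 h and an adjusted p of 0.701. Without the ZT10 pool the amplitude went from 0.07 to 0.03 log2. Cdkn2c was the member whose promoter in the RefSeq table held an E-box. The table lists 2 starts for it, and behind the second, within the transcribed bases, stands the stretch shown here because it carries the clock's core motif, CACGTG, in capitals (GRCm38.p6, chr4:109665323-109665352, minus strand, bases 21 to 50 after the start).
Cdkn2c: ttttgctgaataatCACGTGtgaatcgagg

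Promoters of 300 bases, 250 before and 50 after a start, were listed for 6 of the 9 members, 7 promoters in all. Wee1, Cdkn1c and Rb1 had no entry. Searching both strands, CACGTG was in 1 of the 7, beside 7.15% of 32851 promoters in the table. The core site of REV-ERB and ROR receptors, AGGTCA, was in 2 of 7 (16.3% of all), the D-box, as TTATGTAA or TTACGTAA, in 0 of 7 (1.06%), and the cAMP response element, TGACGTCA, in 1 of 7 (1.79%). No match overlapped another in the 7 promoters. A match describes the letters and not a bound site.

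The fitted slopes of the BTG genes, which slow proliferation, had opposite signs, and neither passed the test. Btg2, a p53 target that is induced early by growth and stress signals, was higher on the second day at each of 6 times. Its intensity was 1757, 1849, 1895, 1846, 1830 and 1962 from ZT2 to ZT22, then 1947, 1916, 2162, 1989, 1923 and 2045 from ZT26 to ZT46, and 2195 at ZT50. The lowest pool was the first and the highest the last. The second day exceeded the first by 3.62% at 6 h to 14.1% at 10 h, a mean of 0.10 ± 0.05 log2 (SD, n = 6 times of day). Such a second day above the first at all 6 times was the pattern of 1.30% of genes. The slope was 0.13 ± 0.03 log2 per 24 h (SE; 95% interval 0.06 to 0.20), with an unadjusted p of 0.00194, rank 95 of 16322, and an adjusted p of 0.326. The unadjusted p was under 0.05 in 22 of 22 alternative fits. The 24 h wave of Btg2 had a fitted fold of 1.06 (adjusted p = 0.778).

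The promoter of Btg2 held a pair of the motifs searched. So did the Cdkn2c promoter with the E-box, where AGGTCA, read on the other strand, lay at -180 to -175. Btg2 also had the smallest p for drift among the members, so the 250 bases before its start are shown. They lie at chr1:134079156-134079405 (GRCm38.p6, RefSeq, minus strand). Capitals mark the cAMP response element at -166 to -159 and the core site AGGTCA, read on the other strand, at -150 to -145.
Btg2: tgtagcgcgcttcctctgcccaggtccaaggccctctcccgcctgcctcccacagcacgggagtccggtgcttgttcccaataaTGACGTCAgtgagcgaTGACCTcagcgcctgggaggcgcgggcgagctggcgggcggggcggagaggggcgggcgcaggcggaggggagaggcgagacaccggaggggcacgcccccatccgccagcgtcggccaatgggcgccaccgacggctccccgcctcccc

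Btg1, the paralogue of Btg2, lay between 5338 in ZT46 and 6067 in ZT2, with a median of 5637. At 5 of 6 times of day the second-day pool was below the first, as for Wee1 and Cdkn2d. A second day lower at 5 or more of the 6 times was found for 2116 of the 16322 genes. The slope of Btg1 was -0.04 ± 0.03 log2 per 24 h (adjusted p = 0.764), and the fitted fold of the wave 1.05 with an upper 95% bound of 1.15 (adjusted p = 0.825). Its SD of 0.06 log2 was at percentile 5.02 of all genes.

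Gadd45a and Rb1 had small fitted waves that did not pass the test. Gadd45a, which is induced by DNA damage and hinders Cdk1, lay between 499.0 in ZT10 and 626.6 in ZT22 with a median of 573.0. The same hours on the next day gave 618.1 in ZT34 and 541.7 in ZT46, on the other side of the median in each case. Its 18 h pools were alike, 508.8 in ZT18 and 508.1 in ZT42, below every other pool but ZT10. At 6 h it was 573.0 in ZT6 and 580.9 in ZT30. Its fitted fold was 1.08 with an upper 95% bound of 1.23 (adjusted p = 0.814). Rb1, the gene of the retinoblastoma protein, lay between 3015 in ZT2 and 3520 in ZT18 with a median of 3307. Its fitted fold was 1.02 with an upper bound of 1.14 (adjusted p = 0.971).

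**Figure D2:**
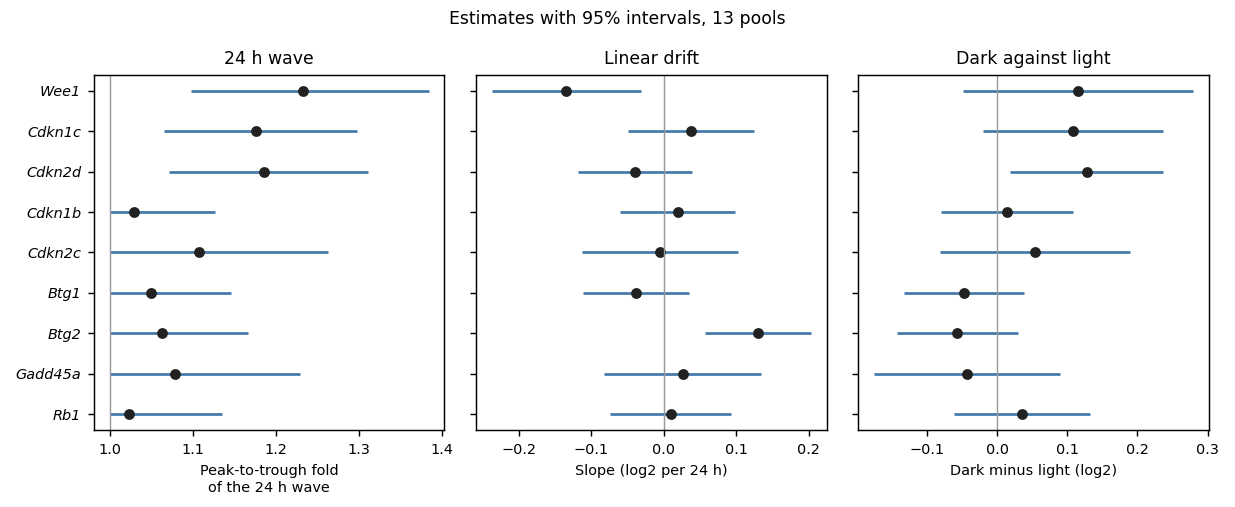
For each of 9 brakes, the peak-to-trough fold of the 24 h wave (lower bound stopped at 1), the slope in log2 per 24 h and the dark minus light difference in log2, with 95% intervals from the fit over 13 pools. The intervals are not adjusted for the number of genes. Those of the wave leave out a fold of 1 for Wee1, Cdkn1c and Cdkn2d. They take no account of the choice of peak hour, so they leave out 1 more readily than the F test. Those of the slope leave out 0 for Wee1 and Btg2, and that of dark minus light for Cdkn2d.

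Over the sampled span no member passed for linear drift. The count was 0 of 9 adjusted over all genes (limma), beside 0% of all genes. At an unadjusted p under 0.05, Btg2 was higher with time, as 3.22% of genes were, and Wee1 lower, as 5.59% were. The other 7 slopes lay between -0.04 and 0.04 log2 per 24 h on the probe that stood for the gene. The second, dimmer probe of Cdkn1b had a slope of 0.14 log2 per 24 h (limma, unadjusted p = 0.0192). Among skeletal muscle markers in the same pools, 6 of 14 had an unadjusted p under 0.05 for a positive slope and 0 of 14 for a negative one, with a median slope of 0.28 log2 per 24 h, and 0 passed adjusted. With muscle and adipocyte levels in the fit the slope of Btg2 was 0.12 log2 per 24 h (unadjusted p = 0.0102) and that of Wee1 -0.10. The median size of the slope over members, sign aside, was 0.04 log2, as it was for all genes.

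**Figure D3:**
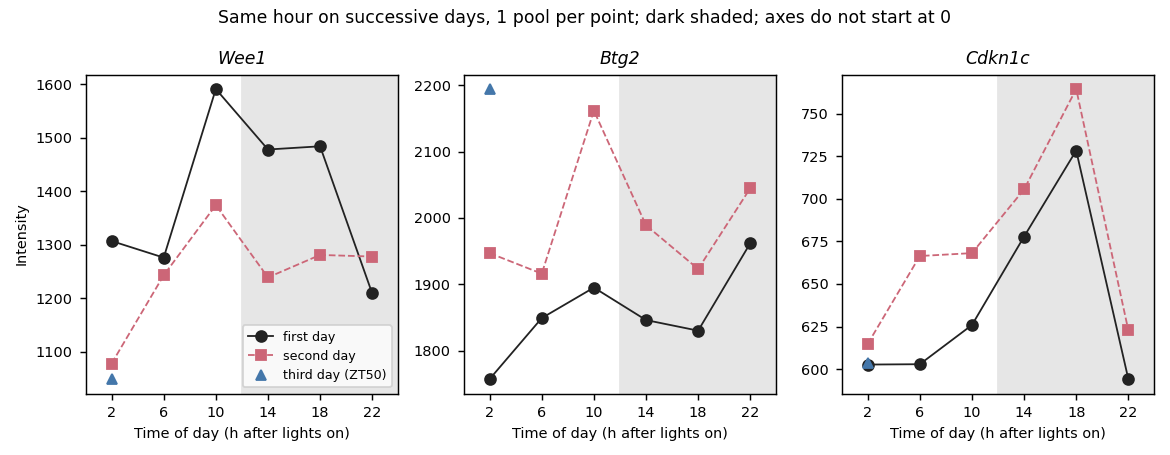
Intensity at the same time of day (hours after lights on) on the first day (circles), the second (squares) and, at 2 h, the third (triangle), 1 pool per point, dark shaded, axes not starting at 0. Wee1 is lower on the second day at 5 of 6 times, and Btg2 and Cdkn1c are higher at all 6.

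Pools taken in the dark were set against those taken in the light, with linear time in the fit. In no member did the phases separate: light and dark pools overlapped in 9 of 9, and only 0.276% of all genes had phases without overlap. The test called 0 of 9 (limma, adjusted), beside 0.00613% of all genes. Cdkn2d had the largest difference, 0.13 ± 0.05 log2 higher in the dark (SE; unadjusted p = 0.0248, adjusted p = 0.369), and was the 1 member with an unadjusted p under 0.05. That p was under 0.05 in 16 of 22 alternative fits. It was 0.0547 with quantile normalization, 0.147 under median centring (difference 0.08 log2), 0.106 with the muscle and adipocyte covariates, and 0.0622, 0.0584 and 0.0574 without ZT14, ZT30 and ZT34. Higher in the dark at that level were 7.56% of all genes, and lower 4.87%. Its dark pools ran from 657.4 to 754.2 with a median of 724.5, and its light pools from 598.2 to 696.9 with a median of 668.7. Cdkn1c was 0.11 ± 0.06 log2 higher in the dark (adjusted p = 0.447), with dark pools from 594.2 to 764.4 around a median of 691.7 and light pools from 602.7 to 668.1 around 614.8. Its highest 4 dark values exceeded every light value, and its ZT22 value was the lowest of all. Wee1 was 0.11 ± 0.08 log2 higher in the dark (adjusted p = 0.512), with dark pools from 1209 to 1484 and light pools from 1049 to 1591. The differences of the other 6 lay between -0.06 and 0.05 log2. Under median centring of the arrays every member had a lower value. It was 0.06 log2 for Cdkn1c, 0.07 for Wee1 and between -0.10 and 0.01 for the other 6. With quantile normalization it was 0.09 for Cdkn1c and 0.12 for Wee1.

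Correlations between members had both signs. Pairs of other genes were not counted, so the counts here have no background beside them. Of 36 pairs, 16 had a positive correlation over the 13 pools, with r from -0.68 to 0.56 and a median of -0.07. After adjustment over the 36 pairs 0 passed, and 4 had an unadjusted p under 0.05 (permutation of pools, 100000 draws, two-sided). The strongest pair was Btg1 and Rb1, with r = -0.68 (permutation p = 0.00926, adjusted p = 0.333) and rho = -0.63 (permutation p = 0.0223, adjusted p = 0.339). Without ZT2 and ZT6, the pools farthest from the median of Btg1, r was -0.72. With the fitted wave and slope taken out of each gene, r was -0.74 (permutation, adjusted p = 0.0905), and 0 of the 36 pairs passed. With quantile normalization this pair passed by rho (-0.81, adjusted p = 0.0378) and not by r (-0.71, adjusted p = 0.201). Wee1 and Cdkn1c, whose fitted peaks lay within 1 h of each other, had r = 0.36. Array brightness, shared by all genes of a pool, can enter any of these values. The permutation takes the pools as exchangeable, so waves or slopes that members share can enter its p-values.

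Other genes of the pathway were taken from lists chosen by function. Of 15 further brakes tested 0 passed for the wave, drift or dark against light (limma). At an unadjusted p under 0.05 there were 0 for the wave, 3 with a negative slope and 1 lower in the dark, Tob2. The shares of all genes were 9.54%, 5.59% and 4.87%. Among them the largest fitted fold of the wave was 1.19, of Gadd45g, a relative of Gadd45a. Gas1, a growth arrest gene, had a fitted fold of 1.12 at 14.6 h (adjusted p = 0.548), and Cdkn2a, the Ink4a and Arf locus, 1.17 at 16.2 h (0.555). Pkmyt1, the kinase related to Wee1, had a slope of -0.15 log2 per 24 h (unadjusted p = 0.0312, adjusted p = 0.518), near that of Wee1, and Foxo1 one of -0.10 (adjusted p = 0.488).

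Of 22 cyclins, kinases and other targets of the brakes 0 passed any of the 3 tests. At an unadjusted p under 0.05 there were 1 for the wave, 2 with a negative slope and 2 lower in the dark. Of all genes, 9.54%, 5.59% and 4.87% were at these levels. Cdc25b, the phosphatase that removes the mark Wee1 places on Cdk1, had a fitted peak at 6.5 h and a fold of 1.17 (unadjusted p = 0.0279, adjusted p = 0.486), and it was 0.15 log2 lower in the dark (adjusted p = 0.353). Cdc25a had a fitted fold of 1.12 at 1.4 h (adjusted p = 0.540). Cdk6, which the Ink4 proteins bind, had a fitted fold of 1.19 at 20.1 h (adjusted p = 0.531) and a slope of -0.18 log2 per 24 h (adjusted p = 0.335).

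Of 15 p53 targets 0 passed any test, with a median fitted fold of 1.11 beside 1.09 for all genes. At an unadjusted p under 0.05 there were 3 for the wave, beside 9.54% of all genes. There was 1 positive and 1 negative slope, beside 3.22% and 5.59%. In the dark 1 gene was higher and 1 lower, beside 7.56% and 4.87%. Ei24 had a fold of 1.16 (unadjusted p = 0.00803, adjusted p = 0.431), Pmaip1, a cell death gene, 1.18 at 18.0 h (adjusted p = 0.492) and Sesn1 1.13 at 7.3 h (adjusted p = 0.513). The median slope of the 15 p53 targets was -0.02 log2 per 24 h. Ccng1 had a slope of 0.17 (unadjusted p = 0.0264, adjusted p = 0.509), and Ei24 one of -0.10. Among 10 proliferation genes 0 passed. At an unadjusted p under 0.05 there were 1 for the wave and 2 for a negative slope, beside 9.54% and 5.59% of all genes. For dark against light there were 0 at that level. Aurka, a mitotic kinase, had the smallest p for the wave (fold 1.16 at 1.8 h, adjusted p = 0.476). The summed intensity of the proliferation genes lay between 17383 in ZT38 and 21108 in ZT14, and ranged from 19160 to 20310 in the light pools.

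**Figure D4:**
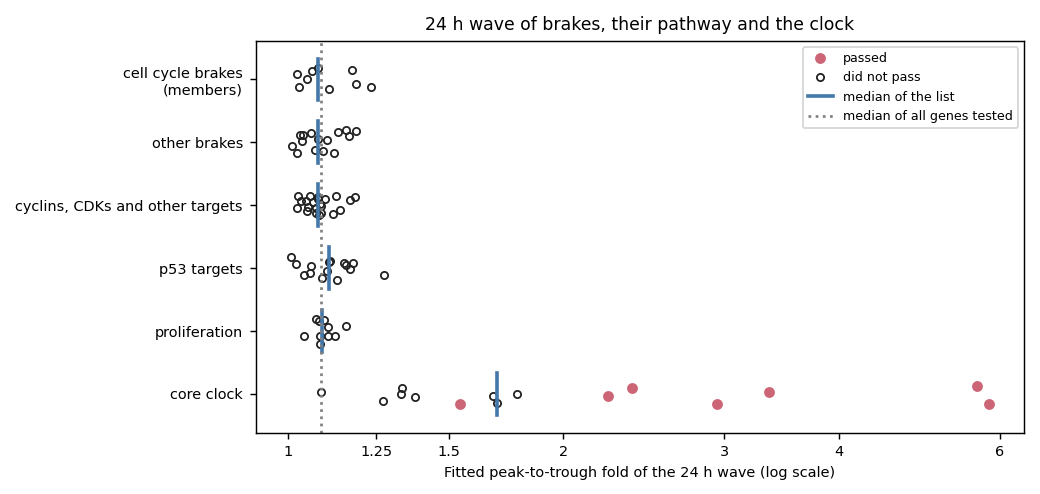
Fitted peak-to-trough fold of the 24 h wave (log scale) for each tested gene of 6 lists; filled points passed at an adjusted p under 0.05, open points did not, blue bars are list medians and the dotted line is the median of all 16322 genes (1.09). All 9 brakes and all genes of the other cell cycle lists lie at folds of 1.27 or less, while 7 clock genes pass.

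The median intensity of an array was 440.0 to 483.2, and pools correlated at 0.978 to 0.996. Most markers of the labelled tissue passed the filter on low values: basal epidermis (6 of 6), differentiated epidermis (4 of 6) and anagen hair matrix (6 of 7). Those that passed had no intensity under 1976. Markers under the filter are left out, so having none at 0, here and below, was nearly fixed by the filter. Skeletal muscle markers (14 of 14, none at 0) summed to 38973 to 80027 in the light and 43006 to 80580 in the dark, with the lowest pool ZT2 and the highest ZT42. Their median fitted wave had a fold of 1.63, with 6 of 14 at an unadjusted p under 0.05, beside 9.54% of all genes. Their median dark minus light was -0.32 log2, with 1 of 14 lower in the dark at that level, beside 4.87%. Adipocyte markers (10 of 11, none at 0) summed to 24387 to 30636 in the light and 25905 to 29548 in the dark. Hepatocyte markers (8 of 8) summed to 30935 in ZT46 and to at most 9363 elsewhere. With muscle and adipocyte levels in the fit, the amplitude of Wee1 was 0.17 log2 (unadjusted p = 0.0248) and that of Cdkn1c 0.14 (0.00812). Without ZT46 they were 0.17 and 0.11.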

How the data were processed

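Whole skin RNA was measured on Affymetrix arrays, 1 per pool. The authors deposited 1 intensity per probe and pool, linear judging by its range. Affymetrix Expression Console 1.1.1 and PLIER 2.0 are named, per the submitters' processing notes, with no role given. Scaling between arrays and a genome build are not given in the sources used here. The number of arrays limits the precision.

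Of 35557 probes, 21789 have 1 gene symbol, 1621 several and 12147 none in the platform annotation. Values were converted to log2(value + 16), so folds are on that scale. Genes are the highest-mean probe at or above the 25th percentile of probe means (7.61 log2).

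limma 3.58.1 (R 4.3.3) fitted cosine and sine terms of 24 h with linear time over all 13 pools (moderated F, Benjamini-Hochberg over 16322 genes). The drift is the time term. Dark and light were compared with linear time as covariate. P-values measure the spread between pools. An amplitude cannot fall under 0, so noise alone gives one above it. Intervals are at 95% and unadjusted, and those of the fold take no account of the choice of peak hour. Correlations used numpy 2.4.6 in Python 3.11.15, figures matplotlib 3.10.9. The fits were checked on simulated data.

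Members and lists were chosen with earlier results of these data known. Named genes were the members, up to 3 with the smallest wave p per pathway list or those called, and 4 clock genes. The 3 genes most like Wee1, after the exclusions given above, were named too. The rule also asked for genes like Cdkn1a, which could not be given. Pkmyt1, Foxo1, Tob2 and Ccng1 were named with their values known. The settings varied were pseudocounts (1 and 64), array scaling (quantile or median), the filter (none or 50th percentile), the mean of all probes, marker levels of muscle and adipocytes as covariates, no linear time, day as a factor, times of day as a factor, no wave terms, and leaving out each pool.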

Additional observations from a re-analysis of the deposited data

Results flagged for a closer look

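Of 18 groups of values, the light and the dark pools of each member, 1 had a pool set apart, and chance gives about 1 in 20. Cdkn2c in the light pools stood at a gap of 0.645 of the range, with ZT10 lowest at 1472 and the next light pool, ZT2, at 1747. The other 10 h pool, ZT34, was at 1776.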

How the results depend on the processing

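The number of members called was 0 in every alternative run for the wave, drift and dark against light (limma), and 0 pairs passed by r with residuals or quantile normalization. Over all genes, 23 passed for the wave, 15 with no filter, 9 with muscle and adipocyte covariates, 9 with times of day as a factor, and 13 to 30 without 1 pool. For dark against light 1 passed, 0 with quantile normalization, a pseudocount of 64, no filter or the covariates, 2 with a 50th percentile filter, 2 with no linear time and 0 to 4 without 1 pool. For drift 0 passed throughout, with 525 genes higher and 912 lower at an unadjusted p under 0.05.

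Values that turned sign were near 0 and the cause was not tested. Dark minus light was -0.030 for Cdkn1b and -0.0088 for Rb1 with median centring, and -0.0045 for Cdkn1b with the mean of its probes. Without wave terms the slope was 0.015 for Cdkn2c and 0.0024 for Cdkn2d, and with median centring it was -0.00088 for Rb1. Without 1 pool, dark minus light of Cdkn1b ran from -0.0038 to 0.037, and the slopes of Cdkn2c from -0.037 to 0.018 and of Rb1 from -0.033 to 0.027. The labels carry no replicate numbers, so pools could be paired only by hour across days, as in the second-day against first-day values. With day as a factor 18 genes and 0 members passed for the wave.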
